A study of Rattus norvegicus with 12 samples.

Results

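Delayed thrombolysis was compared with untreated stroke in rat cerebral cortex, as the 3 rt-PA libraries against the 3 Model libraries of a series of 12. The comparison was chosen by its group labels and took in every gene that passed a filter on low counts, which left 12941 of the 17268 genes in the deposited table. The animals were adult male Sprague Dawley rats. In the Model group a blood clot was injected into the middle cerebral artery and no thrombolysis followed. The rt-PA group had the same embolic stroke and then received recombinant tissue type plasminogen activator (rt-PA) at 10 mg/kg into a tail vein 6 h later. Sham rats had the neck surgery without a clot, and their values are given below as the uninjured level, with no test against them. The labels do not say whether each library came from 1 rat, and neither the time of sampling nor the side of the cortex is stated for these libraries, so p-values measure the spread between these samples only.

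Tissue type plasminogen activator is a serine protease that turns plasminogen into plasmin, which digests the fibrin of a clot. The brain makes the same enzyme, encoded by Plat, in neurons and in vessel walls, where it also acts on matrix proteins and on the precursor of brain-derived neurotrophic factor. In stroke, the drug is known for a narrow treatment window, because late reperfusion carries a risk of bleeding through a leaky blood-brain barrier.

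The libraries held 11678450 to 13538555 counts, so that 3 counts stood for 0.208 to 0.254 CPM. CPM are the counts of a gene as a rate of its library's total, scaled by TMM normalization factors, and each set of 3 values below is in the order of replicates 1, 2 and 3. Libraries of 1 group differed by more than sampling noise, so each counted once. Each library was the highest of the 6 at 9.65% to 20.6% of the genes tested, most often Model replicate 1 and rt-PA replicate 1.

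No gene passed the threshold for a differentially expressed gene, which was an adjusted p under 0.05 with an absolute log2 fold change over 1 in edgeR's quasi-likelihood test, so 0% of genes were called. The smallest adjusted p in edgeR was 0.0847. At an unadjusted p under 0.05, 672 genes (5.19% of those tested) were higher in rt-PA and 612 (4.73%) were lower, 1284 (9.92%) in either direction. With all 3 rt-PA libraries above all 3 Model libraries stood 1014 genes (7.84%), and with all 3 below stood 1060 (8.19%). DESeq2 on the same counts called 74 genes, 53 higher (0.41%) and 21 lower (0.162%). All 74 had an unadjusted p under 0.05 in edgeR, and at 72 of them the groups did not overlap. The median log2 fold change over all genes was 0.004. Genes and lists are therefore described by size, error and overlap, and none is called changed by the edgeR test.

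**Figure D1:**
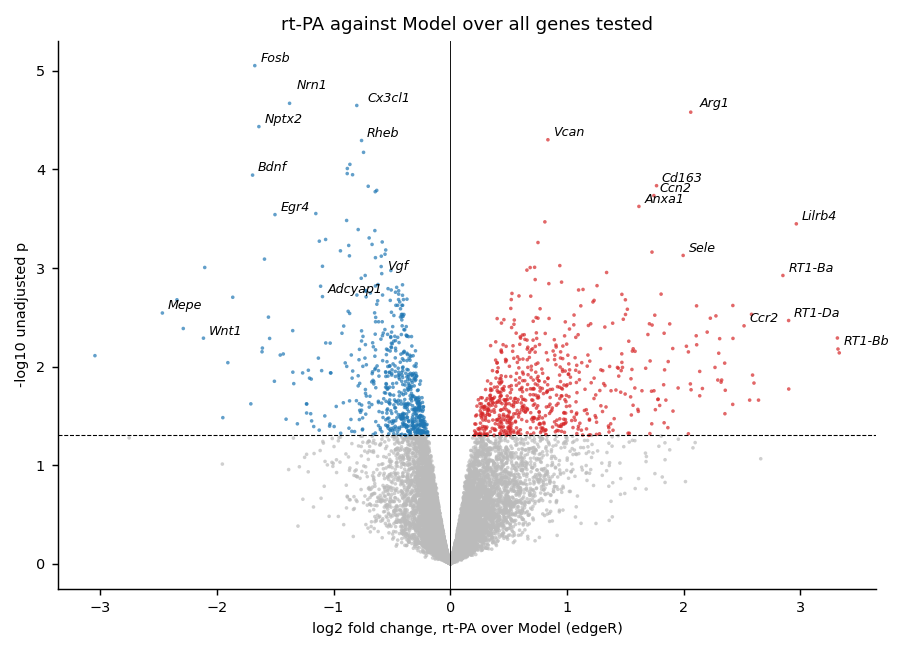
Each point is 1 of the 12941 genes tested, with the log2 fold change of rt-PA over Model on the horizontal axis and -log10 of the unadjusted edgeR p on the vertical axis. Points above the dashed line have an unadjusted p under 0.05 and are red where higher in rt-PA (672) and blue where lower (612). The leading genes on the left are activity-regulated neuronal genes such as Fosb, Nrn1 and Nptx2, and those on the right hold macrophage and class II genes such as Arg1, Cd163 and RT1-Da.

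Activity-regulated genes of neurons led the lower side. Neurons switch on a first wave of transcription factors (immediate early genes) within minutes of strong synaptic input, and these drive a second wave of secreted and synaptic proteins (activity effectors). Among 13 neurotrophins and activity effectors tested, of 15 listed, the median log2 fold change was -0.59, the lowest of the 51 lists with at least 5 genes tested. In this list 9 genes were lower at an unadjusted p under 0.05, against 4.73% of all genes, and none was higher. At 9 the 3 rt-PA libraries lay below the 3 Model libraries, against 8.19% of all genes. The level of the list, its mean log2 CPM less the Model mean, was 0.15, 0.09 and -0.24 in Model, -0.71, -0.85 and -0.56 in rt-PA and -1.72, -1.81 and -1.72 in Sham. The rt-PA libraries thus lay between Model and Sham, without overlap with either.

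Nptx2, a secreted pentraxin that gathers AMPA receptors at excitatory synapses, stood at 1287, 1364 and 1201 CPM in Model and at 366, 322 and 545 CPM in rt-PA. Sham held 70.1, 63 and 87.6 CPM. The rt-PA libraries were all below Model and all above Sham, and the log2 fold change of rt-PA over Model with its standard error (SE) was -1.64 ± 0.19, or 3.12-fold lower (edgeR, adjusted p = 0.094). Nrn1, which encodes neuritin, a membrane-anchored protein that promotes neurite growth, was at 849.9, 831 and 834 CPM in Model against 303, 265 and 398 CPM in rt-PA. The Model values lay within a narrow band, all above the highest rt-PA library, and the log2 fold change was -1.38 ± 0.15 (edgeR, adjusted p = 0.0847). Bdnf, the gene of brain-derived neurotrophic factor, was at 235, 220.0 and 125 CPM in Model, 53.3, 56.8 and 69 CPM in rt-PA and 40.3, 37.9 and 36.7 CPM in Sham. Model replicate 3 was the lowest Model library and still above every rt-PA library. The Bdnf log2 fold change was -1.69 ± 0.24 (edgeR, adjusted p = 0.114), and it was -1.94 without Model replicate 3, where its adjusted p in edgeR was 0.0349.

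Peptide precursors and signalling genes of the same list were lower as well. Vgf, a precursor of secreted neuropeptides, had 1375, 1188 and 1146 CPM in Model and 876, 728 and 860.3 CPM in rt-PA, with a log2 fold change of -0.59 ± 0.12 (edgeR, adjusted p = 0.284). Adcyap1, the gene of the neuropeptide PACAP, had 153, 153 and 106 CPM in Model and 82.2, 44.2 and 66.2 CPM in rt-PA (log2 fold change -1.10 ± 0.24). Neither gene's groups overlapped, and both stood above their Sham levels of 193, 190.5 and 152 CPM and 33.4, 23 and 26.1 CPM in every injured library. Homer1, a scaffold of glutamate receptors, differed by -0.59 ± 0.15, and Rgs4, a brake on G protein signalling, by -0.84 ± 0.25. Inhba, the activin A subunit, was at 198, 131 and 71.6 CPM in Model and 82.3, 60.5 and 69.1 CPM in rt-PA. Its groups overlapped, because Model replicate 3 was far below the other Model libraries. The BDNF receptor gene Ntrk2 was lower in every rt-PA library by a small amount (-0.33 ± 0.11). Groups also overlapped at Ntrk3 and Pcsk1 (-0.17 ± 0.18 and -0.23 ± 0.24) and at Ngfr, the low-affinity neurotrophin receptor gene, which was the single member above 0 (0.56 ± 0.44).

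Immediate early genes shared this direction less evenly. All 18 genes tested had a median of -0.56, with 4 lower and 1 higher at an unadjusted p under 0.05, against 4.73% and 5.19% of all genes, and without Model replicate 3 the median was -0.21. Fosb, which encodes a partner of Jun in the AP-1 factor, had the smallest p of all genes (unadjusted p = 8.83e-06, edgeR). It was at 122, 95.1 and 132 CPM in Model, 31.8, 42.9 and 34.2 CPM in rt-PA and 87.8, 14.1 and 17 CPM in Sham, a log2 fold change of -1.68 ± 0.16 (edgeR, adjusted p = 0.0847). The rt-PA values lay below every Model library and inside the Sham range, whose first replicate was high. Egr4, a zinc finger transcription factor, was at 27.9, 15.1 and 23.4 CPM in Model against 7.9, 7.03 and 8.4 CPM in rt-PA (log2 fold change -1.5 ± 0.24), and here rt-PA was also below Sham at 30.2, 18.8 and 24 CPM. Arc, which controls removal of AMPA receptors from synapses, followed the same order with 113, 51.4 and 71.3 CPM in Model, 43.2, 31.9 and 40.3 CPM in rt-PA and 153, 220.4 and 146 CPM in Sham. Egr2 was also lower without overlap (-1.43 ± 0.40). Fos, Egr1 and Npas4 had overlapping groups. Egr1 was at 209.8, 77.9 and 268 CPM in Model and 93.9, 124 and 67.9 CPM in rt-PA (-0.95 ± 0.42). Fos was at 58.3, 29.7 and 76.2 CPM in Model and 26, 47.8 and 34.1 CPM in rt-PA, and Npas4 was high in 1 Model library alone (2.21, 1.78 and 34 CPM against 4.78, 6.31 and 7.29 CPM). Ier3, an early response gene also induced by inflammatory signals, was the 1 higher member, with a log2 fold change of 0.43 ± 0.15.

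**Figure D2:**
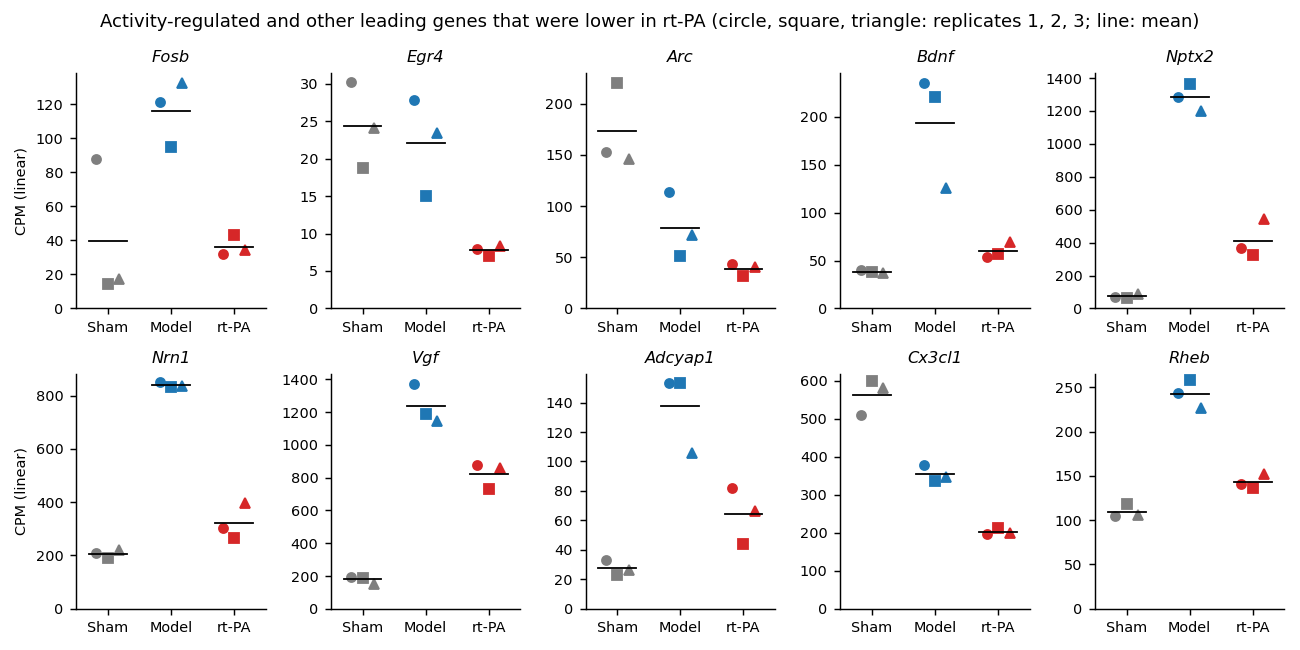
CPM on a linear axis from 0 in each Sham (grey), Model (blue) and rt-PA (red) library for 10 genes that were lower in rt-PA, with replicates 1, 2 and 3 as circle, square and triangle and the group mean as a line. At every gene shown the 3 rt-PA libraries lie below the 3 Model libraries. For Bdnf, Nptx2, Nrn1, Vgf, Adcyap1 and Rheb they lie between Model and Sham, while for Egr4, Arc and Cx3cl1 they lie below Sham.

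Genes that mark neurons by type had medians near 0. The median over 11 excitatory neuron markers was 0.05, over 12 inhibitory interneuron markers -0.07 and over 8 striatal markers 0.04. Slc17a7, the vesicular glutamate transporter of cortical excitatory neurons, was at 724, 740.0 and 838 CPM in Model and 525, 701 and 697 CPM in rt-PA (log2 fold change -0.26 ± 0.13). It is a defining gene of cortex and was well above the level of 3 counts in each library. Neurod6 was higher in rt-PA by 0.72 ± 0.28 with overlapping groups, and Penk, the enkephalin precursor of striatal neurons, was lower without overlap (-0.75 ± 0.22). In bulk tissue, fewer cells of a type and less RNA per cell cannot be told apart.

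Synaptic genes leaned lower by small amounts, most of all in rt-PA replicate 1. Of 13 synaptic vesicle genes, 12 had a negative log2 fold change, with a median of -0.20, and at 6 the rt-PA libraries were all below Model, against 8.19% of all genes. The exception was Syt2, a calcium sensor of fast release, which was higher without overlap (0.82 ± 0.34). The list level was -0.09, 0.06 and 0.03 in Model and -0.45, -0.01 and -0.02 in rt-PA, so that rt-PA replicates 2 and 3 lay inside the Model range. Without rt-PA replicate 1 the median was -0.11. Stx1a, a SNARE protein of the presynaptic membrane, was at 308, 290.2 and 277 CPM in Model and 200.5, 225 and 238 CPM in rt-PA (log2 fold change -0.40 ± 0.10), and Syp, the vesicle protein synaptophysin, differed by -0.25 ± 0.10. Of 17 glutamate and GABA receptor genes, 14 were negative with a median of -0.13, and without rt-PA replicate 1 it was -0.02. The inward rectifier potassium channel gene Kcnj4 was at 34, 33 and 42.6 CPM in Model and 21.8, 19.1 and 25.4 CPM in rt-PA, against 95.6, 98.3 and 96.4 CPM in Sham. Its log2 fold change was -0.72 ± 0.16 (edgeR, adjusted p = 0.296), and the rt-PA libraries lay below both other groups.

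The other lower genes among the 10 with the smallest p had log2 fold changes under 1 in size and small errors. Cx3cl1, which encodes fractalkine, the neuronal chemokine that signals to microglia through Cx3cr1, was at 377, 337 and 347 CPM in Model, 196, 211 and 200.1 CPM in rt-PA and 509, 598 and 579 CPM in Sham. Each group was tight and none overlapped, and the log2 fold change was -0.80 ± 0.09 (edgeR, adjusted p = 0.0847). Its receptor gene Cx3cr1 had overlapping groups (0.14 ± 0.13). Rheb, the small GTPase that activates mTORC1, was at 244, 258 and 226 CPM in Model and 141, 136 and 152 CPM in rt-PA, closer to the Sham level of 105, 118 and 106 CPM (log2 fold change -0.76 ± 0.09). Sh3rf3, a scaffold of the JNK pathway, differed by -0.74 ± 0.10, Gfra2, the receptor of the neurotrophic factor neurturin, by -0.86 ± 0.12, and Plekhh2, a cytoskeletal protein, by -0.88 ± 0.12.

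Of the 10 lowest log2 fold changes among genes with an unadjusted p under 0.05, a mean of at least 1 CPM and groups that did not overlap, 3 were Bdnf, Fosb and Nptx2, and the other genes were low in level. Wnt1, a secreted Wnt ligand, was at 26.2, 22 and 22.4 CPM in Model, 5.82, 1.22 and 9.21 CPM in rt-PA and 0.889, 0.612 and 0.611 CPM in Sham (log2 fold change -2.11 ± 0.55). The rt-PA libraries spread widely and all lay between the Model and Sham ranges. Mepe, an extracellular matrix phosphoglycoprotein known from bone, was at 24.8, 9.47 and 5.12 CPM in Model and 2.22, 1.79 and 3.09 CPM in rt-PA, with widely spread Model libraries (-2.47 ± 0.57). Ostn, a secreted peptide, was at 6.03, 10.2 and 6.69 CPM in Model and 2.08, 1.08 and 3.09 CPM in rt-PA (-1.86 ± 0.41). Lipm, Ahrr, Lrrc74b and Stac lay under 5 CPM in every Model and rt-PA library, with log2 fold changes of -2.34 ± 0.52, -2.10 ± 0.41, -1.91 ± 0.55 and -1.71 ± 0.61. Each had fewer than 10 counts in at least 1 rt-PA library and passed the filter on low counts mainly through Model.

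On the higher side, the genes of antigen presentation to T cells stood near the top. Major histocompatibility complex (MHC) class II molecules are pairs of an alpha and a beta chain that hold peptides on macrophages, dendritic cells and activated microglia, and the invariant chain Cd74 escorts them. Their promoters share a short set of boxes, of which the Y box with the core letters CTGATTGG is bound by the factor NF-Y. The 4 rat chain genes below are shown because they lay together at the top of the list, as the last 120 bases before the gene start in RefSeq, build GRCr8, with the box in capitals.
RT1-Da, chr20:4515295-4515414, plus strand: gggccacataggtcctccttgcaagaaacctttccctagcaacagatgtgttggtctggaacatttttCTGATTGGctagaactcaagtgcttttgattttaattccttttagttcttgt
RT1-Db1, chr20:4560163-4560282, minus strand: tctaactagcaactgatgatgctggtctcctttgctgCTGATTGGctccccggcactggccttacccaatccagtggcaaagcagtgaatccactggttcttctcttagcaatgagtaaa
RT1-Ba, chr20:4576937-4577056, plus strand: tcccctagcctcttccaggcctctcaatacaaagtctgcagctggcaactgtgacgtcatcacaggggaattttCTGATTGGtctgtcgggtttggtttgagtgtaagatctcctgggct
RT1-Bb, chr20:4604119-4604238, minus strand: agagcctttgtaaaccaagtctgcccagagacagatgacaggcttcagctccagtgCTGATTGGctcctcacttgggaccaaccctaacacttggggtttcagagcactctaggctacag

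The box began 52, 83, 46 and 64 bases before the gene start in RT1-Da, RT1-Db1, RT1-Ba and RT1-Bb. On either strand, CTGATTGG stood in the 250 bases before the start in 1068 of 33469 RefSeq promoters (3.19%), and in these 4 of the 10 antigen presentation genes tested. A match of letters is a description and not a measured site, and GRCr8 is not the build on which the reads were aligned.

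The median over the 10 antigen presentation genes tested, of 11 listed, was 1.53, and all 10 were above 0. At 7 of them the rt-PA libraries were all above Model, against 7.84% of all genes, and 7 were higher at an unadjusted p under 0.05, against 5.19%. With at least 10 counts required in every library, 7 of the 10 genes were tested and the median was 0.52, since RT1-Ba, RT1-Bb and RT1-Db1 had fewer counts than that in some Model libraries and passed the filter mainly through rt-PA. RT1-Da, a class II alpha chain gene, was at 1.6, 4.23 and 1.16 CPM in Model and 34.2, 9.11 and 8.62 CPM in rt-PA, a log2 fold change of 2.90 ± 0.70 (edgeR, adjusted p = 0.321). Sham held 0.97, 2.91 and 3.58 CPM, as low as Model, and rt-PA replicate 1 stood well above replicates 2 and 3. The RT1-Ba (2.85 ± 0.57), RT1-Bb (3.32 ± 0.90) and RT1-Db1 (2.33 ± 0.73) values were also highest in rt-PA replicate 1, with RT1-Bb at 0.229, 0.846 and 0 CPM in Model and 6.24, 1.43 and 3.17 CPM in rt-PA, near the level of 3 counts in Model. RT1 genes are a family of close copies whose reads could be split in counting, so the share of each chain is uncertain. Cd74, the invariant chain, was at 3.74, 7.53 and 4.46 CPM in Model and 47.3, 12.9 and 15.8 CPM in rt-PA (2.28 ± 0.54). The class I side differed less. B2m, the light chain of class I molecules, had overlapping groups (0.27 ± 0.17), and Tap1, a peptide transporter, and Psmb9, an immunoproteasome subunit, were higher by 0.51 ± 0.21 and 0.79 ± 0.26. Without rt-PA replicate 1, the list median was 1.06.

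Macrophage genes were higher in each rt-PA library. Of 12 monocyte and macrophage genes tested, of 14 listed, all had a positive log2 fold change, with a median of 1.42, and at 8 the groups did not overlap, against 7.84% of all genes. The list level was -0.31, 0.19 and 0.12 in Model and 1.80, 1.16 and 0.92 in rt-PA. The lowest rt-PA library was above the highest Model library, and without rt-PA replicate 1, the highest, the median was 1.04.

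Arg1, the arginase that macrophages of a repair type use to break down arginine, was at 2.37, 3.3 and 2.81 CPM in Model, 13, 12.6 and 9.8 CPM in rt-PA and 2.75, 3.83 and 2.01 CPM in Sham. Model was at the Sham level, all rt-PA libraries were above both, and the log2 fold change was 2.06 ± 0.23, or 4.17-fold (edgeR, adjusted p = 0.0847). Cd163, a scavenger receptor for hemoglobin bound to haptoglobin, was at 5.11, 4.99 and 4.21 CPM in Model and 21.5, 11.9 and 15.3 CPM in rt-PA (log2 fold change 1.77 ± 0.26). Mrc1, the mannose receptor CD206, was at 7.63, 5.5 and 10.5 CPM in Model and 22.6, 15.5 and 21.6 CPM in rt-PA (1.34 ± 0.27). Cd163 and Mrc1 also mark resident macrophages of the meninges and of perivascular spaces. Ccr2, the chemokine receptor of inflammatory monocytes, was at 0.839, 1.86 and 1.4 CPM in Model and 15.2, 4.3 and 3.9 CPM in rt-PA, with rt-PA replicate 1 far above the other libraries (2.52 ± 0.62). Msr1 and the lysosomal marker Cd68 were higher without overlap (0.60 ± 0.15 and 1.12 ± 0.25), whereas Cd14 and lysozyme (Lyz2) overlapped (0.20 ± 0.14 and 0.78 ± 0.41). Vcan, the large matrix proteoglycan versican that monocytes and glial precursors also express, was at 92.3, 88.4 and 84.3 CPM in Model and 176, 145 and 151 CPM in rt-PA (0.84 ± 0.10, edgeR, adjusted p = 0.094).

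Markers of resident microglia lay near 0. The median over 9 homeostatic microglia genes was 0.14, and the list level was 0.06, 0.07 and -0.13 in Model and 0.00, -0.05 and -0.05 in rt-PA, against 1.55, 1.58 and 1.32 in Sham. The purine receptor P2ry12 was at 6.41, 4.9 and 4.38 CPM in Model and 3.33, 4.8 and 3.54 CPM in rt-PA, with 69.8, 63.1 and 65.4 CPM in Sham. Tmem119 was at 13.2, 14.6 and 14.2 CPM and 17.1, 13 and 11.3 CPM, and Csf1r differed by 0.21 ± 0.12 with overlapping groups. P2ry13, at 6 to 20 counts a library, was lower without overlap (-1.19 ± 0.47), and Sall1, a transcription factor of microglia, was higher without overlap (0.29 ± 0.14).

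Neutrophil genes rested on fewer libraries. The median over 9 genes tested, of 15 listed, was 1.39 and without rt-PA replicate 1 it was 0.55. With at least 10 counts in every library, 6 of the 9 were tested and it was 0.78. S100a9, a subunit of neutrophil calprotectin, was at 0.534, 2.79 and 6.28 CPM in Model and 35.7, 16.6 and 4.2 CPM in rt-PA. Model replicate 3 was above rt-PA replicate 3, so the groups overlapped despite a log2 fold change of 2.57 ± 0.90. Of the 9, 1 had groups that did not overlap, against 7.84% of all genes. It was Cxcr2, the neutrophil chemokine receptor, at 1.22, 2.62 and 1.9 CPM in Model and 14.7, 4.73 and 4.12 CPM in rt-PA (2.04 ± 0.56). Trem1 was higher by 1.20 ± 0.51 with overlap. Lymphocyte lists could hardly be read, since 2 of 11 T and NK cell genes and 0 of 5 B cell genes passed the filter on low counts.

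**Figure D3:**
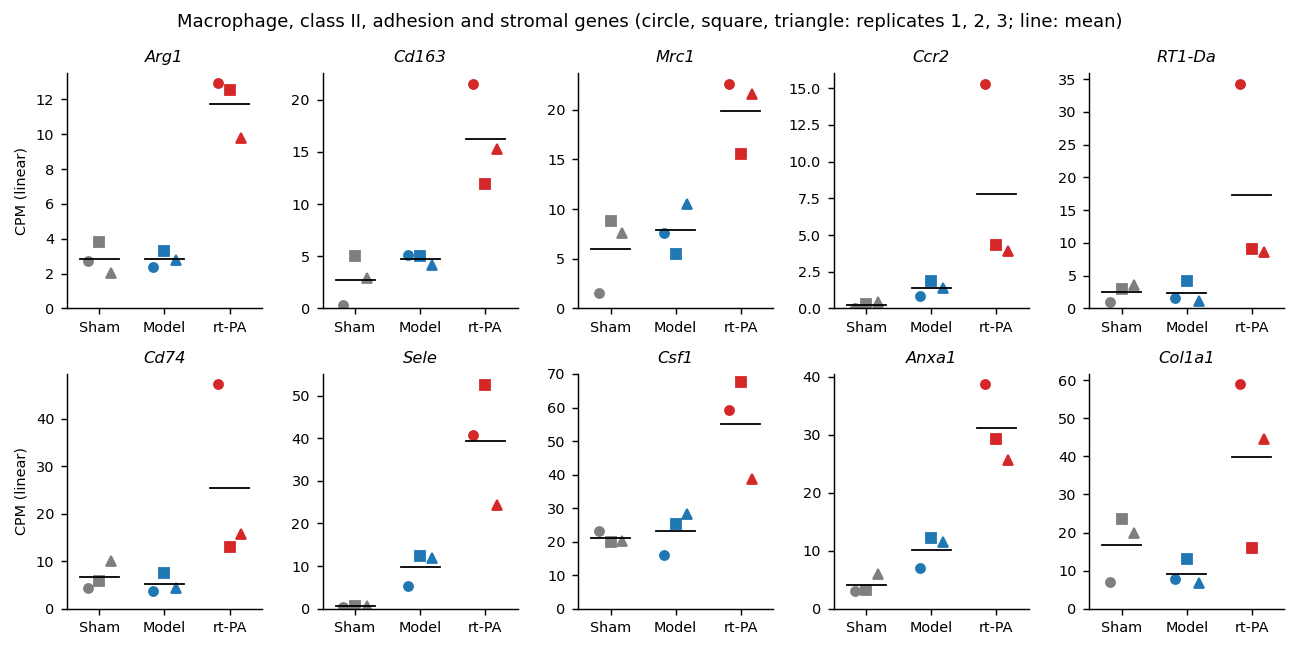
CPM on a linear axis from 0 in each Sham (grey), Model (blue) and rt-PA (red) library for 10 genes that were higher in rt-PA, with replicates 1, 2 and 3 as circle, square and triangle and the group mean as a line. At every gene shown the 3 rt-PA libraries lie above the 3 Model libraries. rt-PA replicate 1 (circle) is the highest library for each gene shown except Sele and Csf1.

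Other immune genes among the 10 highest log2 fold changes were also low in level. Lilrb4, an inhibitory receptor of myeloid cells with close copies in the genome, was at 0.61, 0.761 and 1.07 CPM in Model and 10.7, 4.09 and 4.42 CPM in rt-PA (2.97 ± 0.49). Ccl12, a monocyte chemokine, was at 0.0763, 0.338 and 0.496 CPM in Model and 2.84, 5.59 and 0.737 CPM in rt-PA and at 0 in Sham, with rt-PA replicate 3 close to Model (3.32 ± 0.86). Slamf9 and Mcemp1, a pair of myeloid membrane proteins, were higher by 2.60 ± 0.83 and 2.59 ± 0.80. Their Model counts were 6, 7 and 0 for Slamf9 and 1, 14 and 7 for Mcemp1. Like Ccl12, with 1, 4 and 6 counts in Model, they passed the filter on low counts mainly through rt-PA. The size of these differences is therefore uncertain.

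Genes that let leukocytes leave the blood were higher in most cases. Endothelial selectins catch passing leukocytes, integrins and their ligands then hold them, and chemokines direct them into tissue. Of 13 genes of this adhesion list, 12 were above 0, with a median of 0.75, and 9 were higher at an unadjusted p under 0.05, against 5.19% of all genes. At 6 the rt-PA libraries were all above Model, against 7.84%. Sele, the E-selectin of activated endothelium, was at 5.42, 12.4 and 11.8 CPM in Model, 40.8, 52.6 and 24.4 CPM in rt-PA and 0.485, 0.689 and 0.611 CPM in Sham. Every rt-PA library was above the highest Model library, with a log2 fold change of 2.00 ± 0.37 (edgeR, adjusted p = 0.245). Selp, P-selectin, was at 0.61, 1.69 and 4.46 CPM in Model and 18.1, 11.7 and 3.83 CPM in rt-PA, where the highest Model and the lowest rt-PA library overlapped (2.32 ± 0.74). The integrin genes Itgal (1.20 ± 0.29), Itgb2 (0.73 ± 0.21) and Itga4 (0.96 ± 0.29) and Vcam1 (0.75 ± 0.23), the endothelial ligand of the Itga4 integrin, did not overlap. Vcam1 was at 10.4, 17 and 17.1 CPM in Model and 22.1, 30.3 and 21.95 CPM in rt-PA. Both groups were below its Sham level of 71.1, 86.3 and 68.1 CPM. Itga4 in rt-PA overlapped Sham (5.33, 4.52 and 2.71 CPM), whereas Itgal and Itgb2 were lower in Sham than in every Model library. Icam1 alone was below 0 (-0.26 ± 0.16), at 64.5, 65.7 and 52.7 CPM in Model and 54.4, 40.5 and 58.1 CPM in rt-PA.

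Chemokines and cytokines leaned the same way in most cases, with wider errors. All 10 tested of the 19 genes in the chemokine list were above 0, with a median of 0.75, but the groups overlapped at each of these 10. Outside that list, the chemokine genes Ccl12 and Cx3cl1 described above did not overlap, one higher and the other lower in rt-PA. Ccl2, the main attractant of Ccr2 monocytes, was at 160.3, 277 and 146 CPM in Model and 387, 261 and 149.8 CPM in rt-PA and had no count in Sham. Of 17 cytokine and receptor genes, 15 were above 0 (median 0.75). Csf1, the growth factor of macrophages and microglia, was at 16, 25.2 and 28.2 CPM in Model and 59.2, 67.6 and 38.7 CPM in rt-PA, with Sham at 23.2, 20.1 and 20.2 CPM (log2 fold change 1.26 ± 0.26). Il33, an alarmin of glia, and Il2rg, the shared cytokine receptor chain, differed by 0.75 ± 0.23 and 1.44 ± 0.45 with overlap. The inflammatory cytokines Il1b, Il6 and Tnf were at or below 19.8 CPM and overlapped (1.54 ± 0.65, 0.89 ± 0.61 and 0.97 ± 0.84).

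Innate sensors, interferon-induced genes and complement were higher in part. Of 18 genes of the Toll-like receptor, inflammasome and NF-kB list, 15 were above 0 (median 0.33), among them Tlr4 at 3.89, 5.92 and 4.3 CPM in Model and 7.0, 8.39 and 8.47 CPM in rt-PA. Of 21 interferon response genes, 8 were higher at an unadjusted p under 0.05, against 5.19% of all genes (median 0.60). Gbp2, a GTPase induced by interferon, was at 5.26, 10.4 and 10.1 CPM in Model and 16.2, 18.1 and 15 CPM in rt-PA, and Ifitm3, a membrane protein that blocks viral entry, differed by 0.62 ± 0.20. Isg15, often the marker gene of this response, was near the level of 3 counts and overlapped (0.32 ± 0.66). In complement (11 genes, median 0.68), C3, the central component, was at 3.13, 5.75 and 9.09 CPM in Model and 24.6, 10.3 and 11.6 CPM in rt-PA.

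The list with the highest median was that of meninges and fibroblasts, cells of the brain's coverings and of large vessels that make collagen. All 9 genes tested, of 12 listed, were above 0, with a median of 2.02, and at 6 the groups did not overlap, against 7.84% of all genes. Col1a1, a chain of type I collagen, was at 7.86, 13.2 and 6.69 CPM in Model, 59.1, 15.8 and 44.6 CPM in rt-PA and 7.03, 23.5 and 20.0 CPM in Sham (log2 fold change 2.11 ± 0.48). Dcn, the proteoglycan decorin, was at 2.52, 10.3 and 7.93 CPM in Model and 66.4, 11.9 and 27.1 CPM in rt-PA (2.35 ± 0.68), and Lum, the related lumican, differed by 2.31 ± 0.60. Col3a1 overlapped, since Model replicate 2 was above rt-PA replicate 2 (2.36 ± 0.78). The list level was -0.76, 0.74 and 0.03 in Model, 2.45, 0.92 and 2.01 in rt-PA and 0.16, 1.44 and 1.23 in Sham. All Sham libraries thus lay above the Model mean, as did the rt-PA libraries, and Model replicate 1 was the lowest of the 9. Gjb2, a connexin known from leptomeningeal cells, and Scn7a, a sodium channel of glial cells, were among the 10 highest log2 fold changes (2.42 ± 0.63 and 2.64 ± 0.92). These markers were high together with the macrophage and class II genes across the rt-PA libraries, in that replicate 1 was the highest in all 3 lists. Replicate 3 was above replicate 2 in the fibroblast and antigen presentation lists and below it in the macrophage list. The part of these markers in those results was not tested.

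Matrix genes were higher as well. Of 21 matricellular and basement membrane genes, 11 were higher and 1 was lower at an unadjusted p under 0.05, against 5.19% and 4.73% of all genes, with a median of 0.69. Ccn2, a matricellular target of YAP and TGF-beta signalling, was at 11, 18 and 19.2 CPM in Model, 66.3, 39.1 and 55.8 CPM in rt-PA and 76.6, 53 and 50.8 CPM in Sham. Model was the lowest group here, and the log2 fold change was 1.74 ± 0.26 (edgeR, adjusted p = 0.132). Its relative Ccn1 was at 18.8, 18.4 and 35.7 CPM in Model and 101, 58.6 and 46.5 CPM in rt-PA (1.5 ± 0.35). Fn1, fibronectin, was at 70.7, 98.7 and 127 CPM in Model, 402, 181 and 237 CPM in rt-PA and 128, 152 and 152 CPM in Sham (1.47 ± 0.32). Spp1, the osteopontin of activated macrophages, was at 308, 328 and 47.3 CPM in Model and 946, 1172 and 525 CPM in rt-PA, with Model replicate 3 far below the rest (1.95 ± 0.64). The basement membrane genes Col18a1 (0.90 ± 0.25) and Lama4 (0.69 ± 0.22) did not overlap, and Col4a1 did (0.62 ± 0.28). Acan, the aggrecan of perineuronal nets, went the other way, at 45.8, 67.8 and 33.3 CPM in Model and 31.6, 14.5 and 22.2 CPM in rt-PA (-1.10 ± 0.33).

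**Figure D4:**
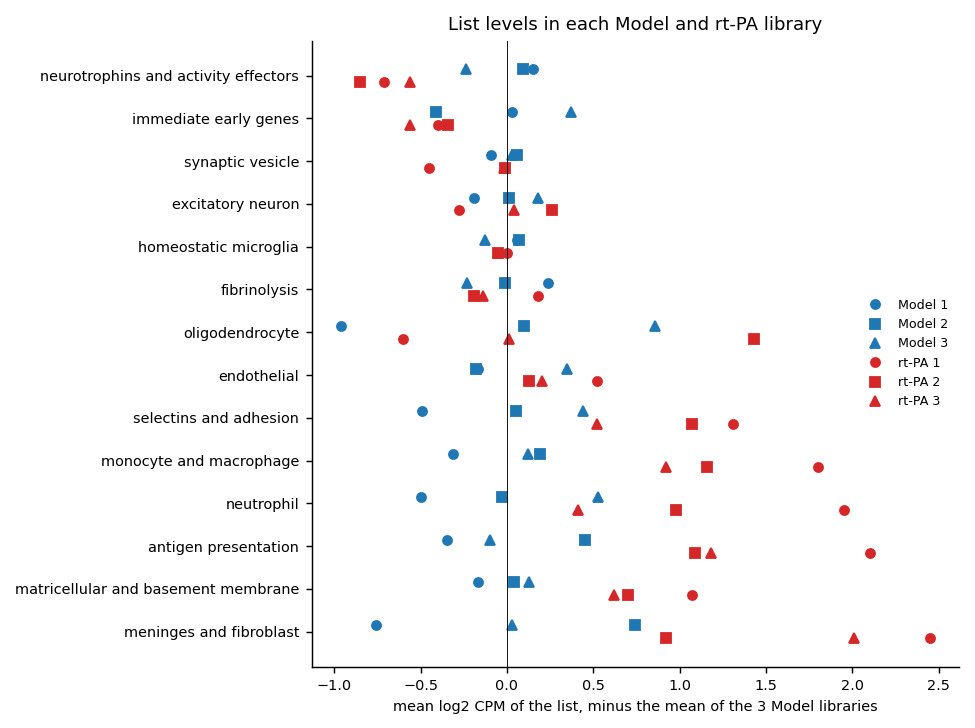
The level of 14 gene lists in each library, as the mean log2 CPM of the genes tested less the mean of the 3 Model libraries, with Model in blue above and rt-PA in red below, and replicates 1, 2 and 3 as circle, square and triangle. The rt-PA libraries lie left of Model for neurotrophins and activity effectors and right of Model for monocyte and macrophage, antigen presentation, matricellular, adhesion, and meninges and fibroblast genes. They overlap for immediate early, synaptic vesicle, excitatory neuron, homeostatic microglia, fibrinolysis, oligodendrocyte, endothelial and neutrophil genes.

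Transcripts of the fibrinolytic system did not differ as a group. rt-PA is given as a protein, so the Plat transcript measures the animal's own gene. Plat was at 102, 119 and 143 CPM in Model, 172, 106 and 112 CPM in rt-PA and 88.4, 85.6 and 78 CPM in Sham, with full overlap (log2 fold change 0.10 ± 0.21). The urokinase gene Plau and its receptor gene Plaur differed by 0.07 ± 0.28 and -0.06 ± 0.30. The median over 11 fibrinolysis genes was -0.05, and none had an unadjusted p under 0.05. In the coagulation list (10 genes, median 0.69), F13a1, the fibrin crosslinking factor that macrophages carry, was at 1.6, 1.52 and 3.47 CPM in Model and 9.77, 5.02 and 4.93 CPM in rt-PA (1.58 ± 0.44), and F2rl1, a protease-activated receptor, differed by 0.83 ± 0.28. The tissue factor gene F3 overlapped (-0.27 ± 0.19).

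Proteases that open the vessel wall were mixed. Of 16 metalloproteinase and inhibitor genes, 13 were above 0 (median 0.58). Mmp9, the gelatinase most often tied to bleeding after late thrombolysis, was at 84, 77.8 and 105 CPM in Model, 70.2, 86.9 and 105 CPM in rt-PA and 4.85, 4.29 and 6.55 CPM in Sham, so that the groups overlapped fully (-0.02 ± 0.17). Mmp2 was at 3.89, 6.51 and 4.63 CPM in Model and 12.6, 6.38 and 10.2 CPM in rt-PA (0.96 ± 0.32). Adamts7 and Adamts2 showed no overlap, with rt-PA the higher group (1.02 ± 0.25 and 1.09 ± 0.36). Both genes lay under 12 CPM in every Model and rt-PA library. Adamts2 was at 0.687, 1.015 and 1.16 CPM in Model and 2.43, 1.72 and 1.92 CPM in rt-PA. Both groups were far below its Sham level of 15.6, 11.9 and 9.61 CPM. Adamts7 went the other way, with Sham at 0.566, 0.842 and 0.786 CPM, below every Model and rt-PA library. The inhibitor gene Timp1 was at 229, 314 and 141 CPM in Model and 468, 138 and 406 CPM in rt-PA, with overlap (0.57 ± 0.45).

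Vessel genes depended on Model replicate 3. The median over 13 endothelial genes was 0.21 with all libraries and 0.66 without it, and over 11 pericyte and smooth muscle genes it was 0.30 and 0.61. With all libraries, 9 endothelial genes were above 0 and 4 below, and 8 pericyte and smooth muscle genes above and 3 below. At 4 endothelial and 2 pericyte and smooth muscle genes the rt-PA libraries were all above Model, against 7.84% of all genes. Pecam1 (CD31) was at 37.9, 43.7 and 118 CPM in Model and 84.8, 64.8 and 76.2 CPM in rt-PA, and Model replicate 3 alone lay above every rt-PA library. The endothelial phosphatase Ptprb, chosen after its values were seen, was at 44.6, 48 and 135 CPM in Model and 136, 119.5 and 148 CPM in rt-PA. Its log2 fold change was 0.83 ± 0.40 with all libraries, and 1.53 without Model replicate 3. Tinagl1, a matrix protein of vessels also chosen after its values were seen, was at 4.43, 5.24 and 58.4 CPM in Model and 22.6, 24.2 and 23 CPM in rt-PA. With and without that library its log2 fold change was 0.04 ± 0.86 and 2.26. The groups did not overlap at Vwf, von Willebrand factor, with 96.4, 75.4 and 134 CPM in Model and 207, 165 and 176 CPM in rt-PA (0.85 ± 0.20), or at Eng, endoglin, a TGF-beta co-receptor (0.96 ± 0.27). Anpep, an aminopeptidase of pericytes and myeloid cells, was at 5.19, 7.95 and 6.53 CPM in Model and 32, 15.1 and 18 CPM in rt-PA (1.73 ± 0.32). Tagln, a smooth muscle actin-binding protein, was at 12.9, 11.8 and 16.9 CPM in Model and 37.4, 78.6 and 23.8 CPM in rt-PA (1.75 ± 0.41). Sham held 24, 30.5 and 23.6 CPM of Tagln, above every Model library, and rt-PA replicate 3 lay inside the Sham range. Pdgfrb and Abcc9, also of the pericyte and smooth muscle list, had overlapping groups (0.71 ± 0.25 and 0.21 ± 0.15).

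Genes of the barrier itself differed little. Of 11 tight junction genes tested, 9 were above 0, with a median of 0.13, and none had an unadjusted p under 0.05. Tjp1 (ZO-1) was at 273, 273 and 248 CPM in Model and 316, 264 and 282 CPM in rt-PA. The thyroid hormone transporter Slco1c1 and the lipid transporter Mfsd2a, both of brain endothelium, were at 25.6, 26.8 and 13 CPM and 8.78, 5.83 and 11.9 CPM in Model and 20.7, 8.53 and 19 CPM and 3.74, 8.82 and 14.3 CPM in rt-PA. Sham held 173, 219 and 197 CPM of Slco1c1, far above both. Among vascular ligands, Edn1, the vasoconstrictor endothelin, was at 2.14, 2.79 and 4.71 CPM in Model and 19.6, 7.6 and 8.25 CPM in rt-PA (1.88 ± 0.46). Sham held 12.45, 6.97 and 5.68 CPM of Edn1, above every Model library, and rt-PA replicates 2 and 3 lay inside the Sham range. Vegfa, the main permeability factor, was lower in every rt-PA library, at 209, 257 and 276 CPM in Model, 183, 184 and 139.8 CPM in rt-PA and 182, 164 and 163 CPM in Sham (-0.55 ± 0.15).

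Markers of bleeding and red cell breakdown were weak or mixed. Of 10 red blood cell genes, 2 were tested. Hba-a3, an alpha globin gene of a family of close copies, was at 1.15, 0.592 and 0.826 CPM in Model, 1.18, 1.29 and 2.87 CPM in rt-PA and 4.69, 1.68 and 0.786 CPM in Sham. Every rt-PA library was above every Model library, replicate 1 by little (log2 fold change 1.05 ± 0.49), and Sham replicate 1 was the highest library. Ahsp, the other red blood cell gene tested, had overlapping groups (-0.15 ± 0.43). Hmox1, the heme oxygenase that degrades heme, was at 253, 330.2 and 344 CPM in Model and 612, 248 and 469.7 CPM in rt-PA, with overlap (0.52 ± 0.30). Ftl1, the light chain of the iron store ferritin, was higher in every rt-PA library (339, 348 and 163 CPM against 517, 529.8 and 471 CPM), and Model replicate 3 was far below the other Model libraries (0.84 ± 0.26).

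Astrocyte genes had overlapping list levels and reactive genes went both ways. Slc1a3, the glutamate transporter GLAST, was at 875, 851 and 879.5 CPM in Model and 655, 605 and 823 CPM in rt-PA (-0.32 ± 0.13), and the median over 12 astrocyte genes was -0.10, with 5 above and 7 below 0 and -0.24 to 0.03 with 1 library left out. Their level was -0.31, 0.06 and 0.25 in Model and -0.13, -0.18 and 0.25 in rt-PA. Over 11 reactive astrocyte genes the median was 0.27, with 8 above and 3 below 0. Hspb1, a small heat shock protein of reactive astrocytes, was lower without overlap (-0.26 ± 0.10). Vim, the intermediate filament vimentin, also made by vessel and immune cells, was at 187, 195 and 173 CPM in Model and 346, 264 and 263 CPM in rt-PA (0.66 ± 0.13, edgeR, adjusted p = 0.274). Gfap, its astrocyte counterpart, overlapped fully (-0.04 ± 0.18). Anxa1, a calcium-binding protein that limits leukocyte entry, was at 6.94, 12.2 and 11.5 CPM in Model, 38.8, 29.3 and 25.6 CPM in rt-PA and 2.99, 3.21 and 6.03 CPM in Sham. The 3 groups did not overlap, and the log2 fold change was 1.62 ± 0.25 (edgeR, adjusted p = 0.162). S100a6 and S100a11, related calcium-binding proteins, were higher without overlap (1.71 ± 0.49 and 1.81 ± 0.39).

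Oligodendrocyte genes varied more within groups than between them. Mbp, myelin basic protein, was at 675, 1567 and 4100.0 CPM in Model and 1261, 4988 and 1381 CPM in rt-PA, and the list level was -0.96, 0.10 and 0.86 in Model and -0.60, 1.43 and 0.01 in rt-PA. All 12 genes had a positive log2 fold change with a median of 0.35, none with an unadjusted p under 0.05, and the median was -0.48 without rt-PA replicate 2. The amount of white matter in each library was not measured.

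Cell death genes leaned higher, while autophagy and most stress lists had medians near that of all genes. Of 19 apoptosis and necroptosis genes, 16 were above 0 with a median of 0.21, and 5 were higher at an unadjusted p under 0.05, against 5.19% of all genes. At 5 the rt-PA libraries were all above Model, against 7.84%. With the replicate number as a block the median was 0.37. Ripk3, the kinase of necroptosis, was at 6.71, 7.86 and 6.77 CPM in Model and 20.6, 10.4 and 11.9 CPM in rt-PA (1.01 ± 0.28), and Bcl2a1, a survival gene of myeloid cells, differed by 1.17 ± 0.35. Bax overlapped (0.05 ± 0.15). The median over 17 autophagy and lysosome genes was 0.06. Becn1 (-0.08 ± 0.09), Map1lc3b (0.10 ± 0.12) and Sqstm1 (0.06 ± 0.09) overlapped, and the lysosomal protease gene Ctsb was higher (0.35 ± 0.12). Heat shock genes (median 0.03), ATF4 and unfolded protein genes (-0.06), oxidative phosphorylation genes (-0.06) and ribosomal protein genes (0.09) had medians within 0.1 of 0. Of 15 cholesterol synthesis genes, 14 were below 0 (median -0.34, and -0.52 to -0.23 with 1 library left out). At an unadjusted p under 0.05, 4 were lower, against 4.73% of all genes. The rt-PA libraries were all below Model at 1 of them, against 8.19%. Their list level was -0.22, 0.2 and 0.02 in Model and -0.51, 0.02 and -0.48 in rt-PA, so rt-PA replicate 2 lay inside the Model range.

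Ranked by median log2 fold change, 35 of the 51 lists were above 0 and 16 below. The 5 highest were meninges and fibroblast, antigen presentation, monocyte and macrophage, neutrophil and chemokine receptor genes. With at least 10 counts required in every library, fewer members of each were tested. Their medians were then 2.12, 0.52, 1.24, 0.78 and 1.02 in the same order. The antigen presentation and neutrophil medians were thus below that of chemokine receptor genes, and the high ranks of these 2 lists rested in part on genes with few counts. The 5 lowest were neurotrophins and activity effectors, immediate early, ependymal cilia, cholesterol synthesis and perineuronal net genes. With each library left out in turn, the neurotrophin and activity effector median stayed between -0.70 and -0.51, the monocyte and macrophage median between 1.04 and 1.51, and the neutrophil median between 0.55 and 1.66. The range was -0.78 to -0.21 for immediate early and -0.52 to -0.23 for cholesterol synthesis genes. For ependymal cilia genes it was -0.57 to -0.18, and 2 of these 6 genes had at least 10 counts in every library. The perineuronal net median ran from -0.31 to 0.21 and so changed sign.

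**Figure D5:**
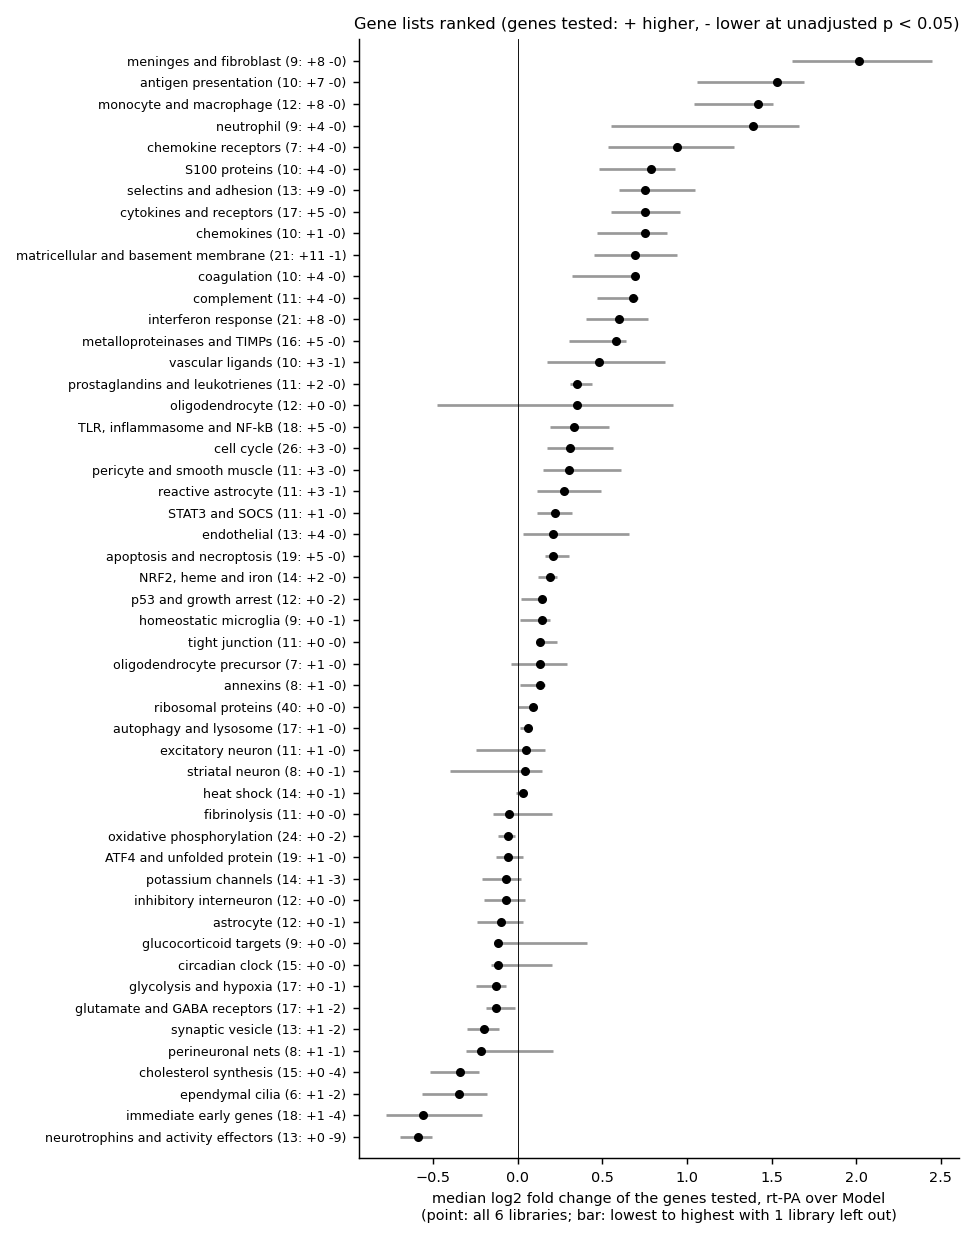
Median log2 fold change of rt-PA over Model for the 51 gene lists with at least 5 genes tested, ranked, with grey bars from the lowest to the highest median when 1 library is left out. Numbers in brackets are the genes tested and those higher (+) or lower (-) at an unadjusted p under 0.05. Immune, fibroblast and matrix lists lie at the top with medians up to 2.02, activity-regulated genes at the bottom with -0.59, and the bars of oligodendrocyte, excitatory neuron and fibrinolysis genes cross 0.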

How the data were processed

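Poly(A) RNA of 12 cortical samples, 3 per group by the labels, was sequenced in pairs from dUTP (strand-marked) libraries with molecular identifiers in the adapters. The authors deposited raw whole-number counts per gene symbol, without normalization. Per the submitters' processing notes, STAR 2.7.10a, featureCounts 2.0.1 and Salmon 1.9.0 were used with build mRatBN7.2. The study's methods name Salmon for the counting of uniquely mapped pairs. The strand setting and any use of the identifiers in counting are not given in the sources used here, so limits cover counting error only.

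Counts were filtered with filterByExpr, normalized with TMM and tested with edgeR 4.0.16 (quasi-likelihood, 6 libraries, Benjamini-Hochberg adjustment) in R 4.3.3, with DESeq2 1.42.0 as an alternative. Printed CPM use TMM factors over the 12 libraries, and log2 CPM a prior count of 2. The step was tested on counts simulated with the means and dispersions of these data, with 200 of 12941 genes changed. At an adjusted p under 0.05 and 2-fold changes, edgeR recovered 58% of them with 11 false calls, and DESeq2 69% with 31. With 4-fold changes edgeR recovered 89.5% with 15 false calls, and DESeq2 93.5% with 41. Each gene was drawn on its own, so shifts that many genes of 1 library share were left out. These shares therefore need not hold for the real libraries. Alternatives were other size factors and filters, 1 fit over 12 libraries, a replicate block and leaving out each library. Members and the 57 gene lists, holding 828 genes of which 683 were tested, were chosen with earlier results of these data known. They are described by counts and medians, without a test. Named genes are the 10 highest and 10 lowest log2 fold changes with an unadjusted p under 0.05, at least 1 CPM on average and groups apart, the 10 smallest p-values, and up to 4 members per list with the smallest p or that define it. Promoter letters are from RefSeq. The mitochondrial genome list was not analysed here, and a few genes are not reported here.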

Additional observations from a re-analysis of the deposited data

How the results depend on the processing

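With 3 libraries a group the p-values measure the spread between these libraries, and a difference near 3 counts was not detectable at this depth. The count of differentially expressed genes was 0 with RLE size factors, library size alone, at least 1 count, at least 10 counts in every library, and the replicate number as a block. It was 2 (Arg1 and Bdnf) in 1 fit over all 12 libraries, 74 in DESeq2, and 241 with an unadjusted p in place of the adjusted one. In edgeR with 1 library left out it was 0 to 3: Bdnf, Ptprb and Tinagl1 without Model replicate 3, Nptx2 and Nrn1 without rt-PA replicate 3, and Lrrc45 without rt-PA replicate 1. Chosen after seeing the data, DESeq2 without Model replicate 3 called 174 genes, 58 of them shared with the 74. At an unadjusted p under 0.05, library size alone gave 884 higher and 404 lower genes, a share of 68.6% higher against 52.3% with TMM, and moved the median of all genes to 0.053. With 1 library left out, 410 (without rt-PA replicate 1) to 960 genes (without Model replicate 3) were higher and 432 (without Model replicate 2) to 752 (without Model replicate 3) lower.

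The labels do not state a pairing of samples by replicate number, and none was seen in the counts. The correlation of deviations was 0.153, -0.0611 and -0.102 for numbers 1, 2 and 3, and not every library correlated best with its own number. With 3 libraries a group these correlations depend on each other, so they cannot decide whether samples were paired. The replicate block gave 638 higher and 674 lower genes, and it moved the apoptosis and necroptosis median to 0.37, Npas4 to 0.15 and Mfsd2a to -0.09.

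Of 714 list medians under alternatives, 674 moved by less than the spread between replicates. At least 10 counts in every library put ependymal cilia at -0.94, S100 proteins at 0.01, neutrophil at 0.78, vascular ligands at 0.29 and antigen presentation at 0.52, where fewer of their members were tested, and library size alone put autophagy and lysosome at 0.11. DESeq2 without Model replicate 3 put endothelial at 0.66, pericyte and smooth muscle at 0.61, matricellular at 0.94, perineuronal nets at 0.21, immediate early at -0.21, glucocorticoid targets at 0.41 and circadian clock at 0.20. With 1 library left out, the medians ran over 0.55 to 1.66 for neutrophil, 1.04 to 1.51 for monocyte and macrophage, 0.53 to 1.28 for chemokine receptors, 0.03 to 0.66 for endothelial, 0.15 to 0.61 for pericyte, 0.45 to 0.94 for matricellular, 0.30 to 0.64 for metalloproteinases, 0.32 to 0.67 for coagulation and -0.15 to 0.20 for fibrinolysis genes. They ran over -0.78 to -0.21 for immediate early, -0.31 to 0.21 for perineuronal net, -0.57 to -0.18 for ependymal, -0.25 to 0.16 for excitatory, -0.40 to 0.14 for striatal, 0.01 to 0.19 for microglia, 0.11 to 0.49 for reactive astrocyte, 0.01 to 0.16 for annexin, 0.01 to 0.06 for autophagy, -0.12 to -0.02 for oxidative phosphorylation, 0.02 to 0.14 for p53, -0.12 to 0.41 for glucocorticoid and -0.16 to 0.20 for circadian clock genes. The cause was not tested.

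Among 2107 gene values under alternatives, 35 had the opposite sign, all of genes with overlapping groups. Library size alone gave Gfap 0.01, Mmp9 0.02 and Tmem119 0.03, and DESeq2 without Model replicate 3 gave Mmp9 0.11, Npas4 1.61 and Plau -0.17. With 1 library left out, log2 fold changes ran over -0.05 to 0.13 for Bax, -0.21 to 0.13 for Gfap, -0.07 to 0.83 for Isg15, -0.01 to 0.20 for Map1lc3b, -0.68 to 1.18 for Mbp, -0.50 to 0.39 for Mfsd2a and -0.19 to 0.11 for Mmp9. They ran over -1.55 to 1.61 for Npas4, -0.48 to 0.00 for Pcsk1, -0.10 to 0.88 for Pecam1, -0.15 to 0.23 for Plat, -0.17 to 0.31 for Plau, -0.32 to 0.24 for Plaur, -0.45 to 2.26 for Tinagl1 and -0.21 to 0.09 for Tmem119.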

Other observations

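Genes of proliferation leaned higher in rt-PA, none past the adjusted threshold in edgeR. Of 26 cell cycle genes, 24 had a positive log2 fold change (median 0.31), and at 6 the rt-PA libraries were all above Model, against 7.84% of all genes. At an unadjusted p under 0.05, 3 were higher, against 5.19% of all genes. The median ran from 0.17 to 0.56 with 1 library left out, lowest without Model replicate 3 and highest without Model replicate 1. Mcm6, a subunit of the DNA helicase, was at 16.7, 16.9 and 15.6 CPM in Model, 23.4, 31.1 and 19.7 CPM in rt-PA and 6.3, 6.89 and 4.54 CPM in Sham (0.60 ± 0.19). Ccnd1, the G1 cyclin D1, was at 21.1, 26 and 24 CPM in Model and 30.1, 31.5 and 29.2 CPM in rt-PA (0.36 ± 0.12). Il6st, the receptor chain gp130 of the IL-6 family, was at 316, 320.2 and 304 CPM in Model and 472, 377 and 379.5 CPM in rt-PA (0.39 ± 0.11). Pdgfra, of glial precursors and fibroblasts, was at 28.7, 57.6 and 49.7 CPM in Model and 122, 52 and 94.5 CPM in rt-PA, with overlap.

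Some other genes leaned lower. Ptgs2 (COX-2), also induced by synaptic activity, was at 1382, 829 and 498 CPM in Model and 551, 260.3 and 597 CPM in rt-PA, with overlap (-0.94 ± 0.41). Plk2, a kinase of active synapses, did not overlap at 552, 457 and 414 CPM and 372, 273 and 357 CPM (-0.50 ± 0.15). Kl, klotho, which choroid plexus expresses, was at 8.47, 16.2 and 7.85 CPM in Model, 2.22, 4.23 and 5.38 CPM in rt-PA and 0.404, 0.689 and 0.524 CPM in Sham. Just 2 of 8 choroid plexus genes were tested. Ependymal genes went both ways, with 4 of 6 below 0. Cfap70, a gene of motile cilia, was at 63.7, 83.1 and 65 CPM in Model, 15.1, 50.0 and 26.5 CPM in rt-PA and 21, 17.7 and 16.6 CPM in Sham (-1.21 ± 0.38), whereas Dnah11, a dynein of motile cilia, was at 0.382, 1.1 and 0.496 CPM in Model and 1.94, 0.861 and 1.99 CPM in rt-PA, with overlap (1.28 ± 0.55).

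A few genes were nearly off in some libraries and well expressed in others of the same group. With at least 100 counts in the highest library and a ratio of at least 50 between counts plus 1 within a group, chosen after the values were seen, 4 genes stood out. Lrrc45 had 181, 178 and 196 counts in Model, 95, 0 and 0 in rt-PA and 0, 243 and 228 in Sham. Surf1 had 146, 242 and 134 counts in Model, 91, 175 and 0 in rt-PA and 261, 164 and 0 in Sham. Asb15 had 3, 297 and 167 counts in Model, 2, 188 and 348 in rt-PA and 6, 328 and 235 in Sham. Kng1, kininogen, had 0, 30 and 5 counts in Model, 160, 2 and 98 in rt-PA and none in Sham. The adjusted p of Lrrc45 in edgeR was 0.505 with all libraries and 0.0216 without rt-PA replicate 1.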
